A study of Mus musculus with 4 samples.

Results

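The chromatin of 34 mouse integrin and focal adhesion genes was examined in 4 libraries of Omni-ATAC-seq, an assay in which a transposase cuts and tags open DNA. The genes were the 26 integrin α and β subunit genes on the list and 8 genes of the adaptors and kinases that join integrins to the actin cytoskeleton, of 21887 protein-coding genes in all. Every accessible interval that the authors had called was taken where it overlapped the gene body or the 10 kb on either side, in mm10 coordinates. Overlapping intervals of the 4 libraries were merged into regions, which gave 419 regions in the 34 loci out of 120423 in the genome. No region belonged to 2 of these loci. The libraries were Cxcr3-/- monocytes, WT monocytes, Cxcr3-/- CMP/GMP (common myeloid and granulocyte-monocyte progenitors) and WT CMP/GMP, with 1 library per group. All came from bone marrow-derived cells of C57BL/6J mice. The design text describes the sequenced cells as cultured in vitro, and the labels give hepatocellular carcinoma as the disease state of all 4 samples. In the study, liver tumours were induced with diethylnitrosamine and CCl4, and whether the donors of these cells had received them is not stated. Neither the age nor the number of donor animals is given. Cxcr3 encodes a chemokine receptor, and the knockout allele is the only labelled difference between the genotypes.

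Integrins are heterodimers of an α and a β subunit that bind matrix proteins or counter-receptors on other cells. Talin and kindlin bind the cytoplasmic tail of the β subunit and switch the receptor to its high-affinity state, and paxillin, vinculin, zyxin and the kinases FAK and Pyk2 gather at the adhesion sites that form. The β2 integrins are restricted to leukocytes, and myeloid cells use them with α4β1 for arrest on endothelium and for phagocytosis. Progenitors use α4β1, α5β1 and α6β1 for retention in the bone marrow niche.

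Because each group had 1 library, no difference between groups could be set against replicate error and no p-value is given. Intervals given below are exact 95% intervals for counting error only. In bulk chromatin, a larger share of open cells and more open chromatin per cell cannot be told apart. The tags piled up at the highest point of each interval were recovered from the authors' fold and −log10 p, and ranged in the median from 21 to 29 per library. Before ratios were taken, tags were divided by 0.879 for Cxcr3-/- monocytes, 1.11 for WT monocytes, 1.29 for Cxcr3-/- CMP/GMP and 0.791 for WT CMP/GMP. Equal accessibility therefore gives the most raw tags in Cxcr3-/- CMP/GMP and the fewest in WT CMP/GMP. A ratio was taken only where both libraries had a call and a mean of at least 30 tags, and past 2-fold was the limit for counting a region as higher or lower. A call depends on the local background as well as on the tags. The tags of a library without a call are therefore unknown, and need not be few. Monocyte marker genes had a called gene end for 9 and 10 of 10 genes in Cxcr3-/- and WT monocytes, against 10 and 10 in Cxcr3-/- and WT CMP/GMP. Their median log2 ratio of monocytes over CMP/GMP was −0.03 in Cxcr3-/- and 0.28 in WT, so these markers did not separate the 2 labelled cell types. Progenitor markers had lower medians, −0.90 over 8 genes in Cxcr3-/- and −0.67 over 7 genes in WT, in which the neighbours Elane and Prtn3 share regions and have equal values. They ranged from −2.16 at Kit, the stem cell factor receptor, to 0.25 at Cd34 in Cxcr3-/-, and from −1.85 at Kit to 1.05 at Gfi1 in WT. Of 4 T and NK cell markers, Cd3e and Ncr1 had no interval in any library, while Cd3g and Tcf7 had intervals in all 4. The scaled tags of these 4 markers summed to 136 and 176 in Cxcr3-/- and WT monocytes, against 226 and 184 in Cxcr3-/- and WT CMP/GMP. Cpa3, a mast cell protease gene, had 0 and 0 intervals in Cxcr3-/- and WT monocytes, against 4 and 3 in Cxcr3-/- and WT CMP/GMP. Over 4 mast cell and basophil markers the scaled tags summed to 17.1 and 25.1 in Cxcr3-/- and WT monocytes, against 151 and 135 in Cxcr3-/- and WT CMP/GMP. Over 4 B cell markers the sums were 223 and 272 in Cxcr3-/- and WT monocytes, against 448 and 503 in Cxcr3-/- and WT CMP/GMP. For 4 neutrophil markers they were 539 and 493 in Cxcr3-/- and WT monocytes, against 677 and 599 in Cxcr3-/- and WT CMP/GMP. For 4 erythroid markers they were 389 and 476 in Cxcr3-/- and WT monocytes, against 569 and 531 in Cxcr3-/- and WT CMP/GMP. The part of these cells in the values below was not tested. At the knocked-out gene, Cxcr3 kept an accessible gene end in all 4 libraries, with 23 and 41 tags in Cxcr3-/- and WT monocytes and 84 and 34 tags in Cxcr3-/- and WT CMP/GMP. Open chromatin there does not check the genotype, since the position of the deletion is not given.

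The start regions are shown for 6 genes on which the results below turn. They are 300-base windows from 250 bases before to 50 after the annotated start in RefSeq (GRCm38.p6), written in the direction of transcription, with every match to 6 searched motifs in capitals. Both strands were searched, so a motif on the reverse strand appears as its reverse complement. The myeloid factor PU.1 was represented by GGAAGT and the RUNX family by the letters TGTGGT. For AP-1, which joins Fos and Jun proteins, the search word was TGACTCA. The box bound by the NF-Y complex was searched by its name, CCAAT, and the binding word of Sp and Klf factors was taken to be CCGCCC. The C/EBP family was represented by the looser pattern TTNNGNAA, which can overlap the other words. Itgam (chr7:128062390-128062689, plus strand) and Itgax (chr7:128129300-128129599, plus strand) encode the αM and αX partners of β2. Itga2b (chr11:102469834-102470133, minus strand) encodes the platelet αIIb subunit. Itgav (chr2:83724147-83724446, plus strand) encodes αV. Tln1 (chr4:43562534-43562833, minus strand) encodes talin-1 and Fermt3 (chr19:7019420-7019719, minus strand) the blood cell kindlin.
Itgam: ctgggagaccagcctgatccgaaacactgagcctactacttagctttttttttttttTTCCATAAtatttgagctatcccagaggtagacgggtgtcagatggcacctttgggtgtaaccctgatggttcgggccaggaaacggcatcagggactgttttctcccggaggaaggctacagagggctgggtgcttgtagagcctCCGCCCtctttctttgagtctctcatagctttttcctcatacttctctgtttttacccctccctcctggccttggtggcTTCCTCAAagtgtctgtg
Itgax: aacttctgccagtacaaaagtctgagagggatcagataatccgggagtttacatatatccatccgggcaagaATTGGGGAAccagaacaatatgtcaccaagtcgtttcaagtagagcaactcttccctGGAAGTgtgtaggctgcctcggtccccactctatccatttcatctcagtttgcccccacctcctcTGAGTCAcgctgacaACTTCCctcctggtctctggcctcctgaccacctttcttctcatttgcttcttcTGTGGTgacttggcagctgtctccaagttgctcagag
Itga2b: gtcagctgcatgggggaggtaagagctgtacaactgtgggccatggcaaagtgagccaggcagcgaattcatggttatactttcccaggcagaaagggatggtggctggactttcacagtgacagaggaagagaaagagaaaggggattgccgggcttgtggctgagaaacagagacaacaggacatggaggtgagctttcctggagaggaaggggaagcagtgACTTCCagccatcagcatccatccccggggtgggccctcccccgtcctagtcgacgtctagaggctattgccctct
Itgav: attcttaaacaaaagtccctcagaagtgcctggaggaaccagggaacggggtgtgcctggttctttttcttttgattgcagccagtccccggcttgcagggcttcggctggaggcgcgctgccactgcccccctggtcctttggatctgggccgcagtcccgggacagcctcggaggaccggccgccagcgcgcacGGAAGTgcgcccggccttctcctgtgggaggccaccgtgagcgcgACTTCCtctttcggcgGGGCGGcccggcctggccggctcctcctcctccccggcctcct
Tln1: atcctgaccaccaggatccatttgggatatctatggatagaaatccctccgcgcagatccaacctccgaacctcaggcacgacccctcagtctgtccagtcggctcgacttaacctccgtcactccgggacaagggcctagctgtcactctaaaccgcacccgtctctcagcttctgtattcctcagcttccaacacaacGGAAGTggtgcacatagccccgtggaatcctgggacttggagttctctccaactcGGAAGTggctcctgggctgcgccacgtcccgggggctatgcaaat
Fermt3: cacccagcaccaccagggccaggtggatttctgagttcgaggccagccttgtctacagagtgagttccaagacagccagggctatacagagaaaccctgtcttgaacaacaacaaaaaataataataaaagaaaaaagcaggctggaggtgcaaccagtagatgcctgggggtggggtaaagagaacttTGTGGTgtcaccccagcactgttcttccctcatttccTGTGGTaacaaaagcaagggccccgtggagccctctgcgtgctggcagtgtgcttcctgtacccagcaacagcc

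Positions give the first printed letter of a match, with the start site as 1 and the base before it as −1, and summits are given by their distance from the start site. Itgax held PU.1 letters at −121 and −41, AP-1 letters at −56 and RUNX letters at 14, and its CCAAT and C/EBP matches overlap each other. Its accessible summit lay at −68 and −29 in Cxcr3-/- and WT monocytes, against −17 and −28 in Cxcr3-/- and WT CMP/GMP, so all 4 summits fell around these letters. Itgam had none of the PU.1, RUNX or AP-1 letters in its window, and its summits lay between 16 and 20 bases after the start in every library. Itgav held PU.1 letters at −54 and −9 with summits 11 to 17 bases after the start. Tln1 held PU.1 letters at −50 and 6. Its summits lay at −34 and 19 in Cxcr3-/- and WT monocytes, against 191 and 266 in Cxcr3-/- and WT CMP/GMP, the last 2 beyond the printed window. Fermt3 held RUNX letters at −61 and −24, with summits 3 to 33 bases after the start. Itga2b held PU.1 letters at −26, but its summits lay before the printed window, at −291 and −300 in Cxcr3-/- and WT CMP/GMP. No monocyte interval touched the Itga2b window. Of the listed genes, 23 of 34 had windows in the table, 26 windows in all. PU.1 letters were in 8 of the 26, against 24.8% of all promoters of this length, RUNX letters in 6 (15.0%), AP-1 letters in 3 (4.66%), CCAAT in 4 (38.2%), Sp/Klf letters in 12 (46.2%) and C/EBP letters in 6 (37.3%). A match describes letters and does not show a bound factor. An accessible interval touched the start window of 17 genes in Cxcr3-/- monocytes (53.4% of all genes in the table), 17 in WT monocytes (55.7%), 19 in Cxcr3-/- CMP/GMP (56.3%) and 16 in WT CMP/GMP (53.1%). All 4 libraries touched the windows of 15 of the 23 genes, beside 50.1% of all such genes, and 4 genes were touched in none (40.9%).

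Nearly every locus was accessible in both cell types and both genotypes. Intervals lay in the loci of 33 genes in Cxcr3-/- monocytes and of all 34 genes in the other 3 libraries, beside 75.4% of all protein-coding genes in Cxcr3-/- monocytes, 77.9% in WT monocytes, 78.0% in Cxcr3-/- CMP/GMP and 76.9% in WT CMP/GMP. The exception was Itgb6, the β6 subunit of epithelia. A called interval stood within 1 kb of a gene end for 24 genes in Cxcr3-/- monocytes (57.1% of all genes), 26 in WT monocytes (60.4%), 28 in Cxcr3-/- CMP/GMP (60.7%) and 27 in WT CMP/GMP (57.8%). The end was called in all 4 libraries for 24 genes (53.1% of all genes) and in none for 6, for which no share over all genes was taken. Gene ends are both edges of the gene body, so the far edge counts as well as the start. Having no called end does not mean a closed start. Itgav is among the 6, and its annotated start, further inside the body, was called in all 4 libraries. The loci held 3 to 39 regions each, with a mean of 12.3 against 5.17 over all protein-coding genes, and their median gene body was 56.4 kb against 17.2 kb. Body length and number of regions moved together over the 34 genes (Spearman rho 0.59).

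Of the 419 regions, 177 were called in all 4 libraries, or 42.2%, beside 38.7% of the regions in all protein-coding loci. Another 50 were called in both monocyte libraries and in neither CMP/GMP library, here called monocyte-only. That is 11.9%, beside 13.8% in all loci. CMP/GMP-only regions numbered 30, or 7.16% beside 6.68%. Both shares were thus near those of all loci. The lists differ in length, and on lists cut to equal length the order turned round, with 40 monocyte-only and 47 CMP/GMP-only regions. Calls differed by place within the locus here as over all protein-coding loci. Regions at gene ends were called in all 4 libraries for 33 of 46, or 71.7%, beside 62.7% at all gene ends. They held 0 monocyte-only (5.34% at all gene ends) and 2 CMP/GMP-only regions (3.85%). In gene bodies 105 of 290 were called in all 4, or 36.2% beside 32.1%, with 40 monocyte-only (16.8%) and 21 CMP/GMP-only regions (7.48%). In the flanks 39 of 83 were called in all 4, or 47.0% beside 41.6%, with 10 monocyte-only (11.3%) and 7 CMP/GMP-only regions (6.38%). Monocyte-only regions were mostly weak, with medians of 17.5 tags in Cxcr3-/- and 19 in WT monocytes and highest values of 86 and 97. CMP/GMP-only regions had medians of 22.5 tags in Cxcr3-/- and 15 in WT CMP/GMP, with highest values of 64 and 38. A monocyte-only region was present in 22 of the 34 loci (34.2% of all genes have one) and a CMP/GMP-only region in 16 (22.6%), in loci that are longer than most. In 13 loci both kinds occurred, a count for which no share over all genes was taken.

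**Figure D1:**
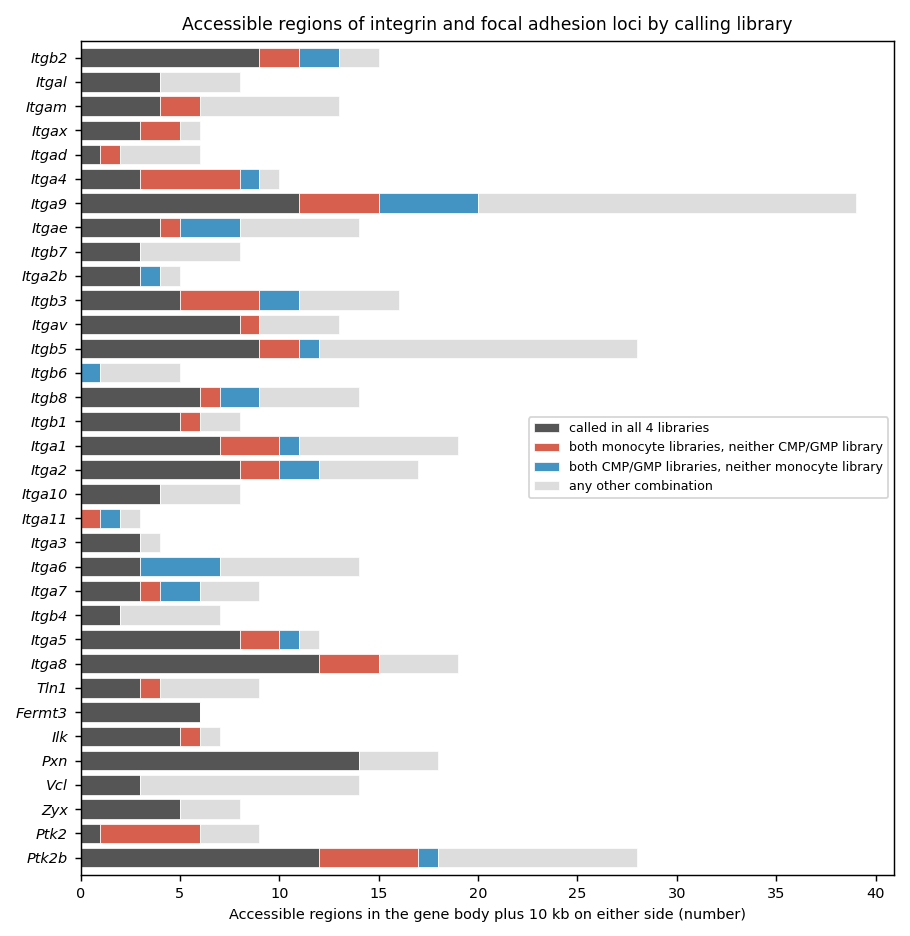
Number of accessible regions in each locus (horizontal axis, gene body plus 10 kb on either side), coloured by the libraries that called them. Dark grey bars are regions called in all 4 libraries, and light grey bars are any other combination. Dark grey leads in genes such as Pxn and Itga8, and light grey in others such as Itga9 and Vcl. Itga4, Ptk2 and Ptk2b have 5 monocyte-only regions each. Itga6 has 4 CMP/GMP-only regions, and all 6 regions of Fermt3 were called in every library.

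The β2 group covers Itgb2 and its partners Itgal (αL), Itgam (αM), Itgax (αX) and Itgad (αD). At Itgb2, the shared β2 subunit, the strongest region lay in the gene body at chr10:77550862-77551375. It had 129 and 138 tags in Cxcr3-/- and WT monocytes, against 145 and 74 in Cxcr3-/- and WT CMP/GMP. The log2 ratio of monocytes over CMP/GMP was 0.38 (0.03 to 0.74) in Cxcr3-/- and 0.41 (−0.01 to 0.83) in WT. A second Itgb2 region passed 2-fold in both genotypes. At chr10:77540680-77541112 it had 61 and 67 tags in Cxcr3-/- and WT monocytes, against 24 and 21 in Cxcr3-/- and WT CMP/GMP, with log2 ratios of 1.90 (1.20 to 2.64) and 1.18 (0.46 to 1.96). Both monocyte libraries were the higher ones. The reverse pattern stood in the same locus at chr10:77554960-77555241, called with 52 and 38 tags in Cxcr3-/- and WT CMP/GMP and in neither monocyte library. Equal accessibility would have given 35.5 tags in Cxcr3-/- and 53.5 in WT monocytes there.

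Itgal, which pairs with β2 as LFA-1, was the one β2-group gene whose gene end was less open in monocytes past 2-fold. Its end at chr7:127296114-127296731 had 14 and 25 tags in Cxcr3-/- and WT monocytes, against 73 and 37 in Cxcr3-/- and WT CMP/GMP. The ratios were −1.83 (−2.77 to −0.99) in Cxcr3-/- and −1.06 (−1.85 to −0.29) in WT. The strongest Itgal region, in the flank at chr7:127288008-127288293, had ratios of 0.20 (−0.52 to 0.90) in Cxcr3-/- and 0.72 (0.02 to 1.46) in WT. At the Itgam gene end (chr7:128063288-128063721), 47 and 86 tags in Cxcr3-/- and WT monocytes stood against 57 and 38 in Cxcr3-/- and WT CMP/GMP, with ratios of 0.27 (−0.32 to 0.86) and 0.69 (0.12 to 1.28). That region is centred 864 bases behind the start, outside the start window printed above. The interval touching the window had 27 and 50 tags in Cxcr3-/- and WT monocytes, against 36 and 21 in Cxcr3-/- and WT CMP/GMP. Itgam, part of the complement receptor Mac-1, had 2 monocyte-only regions in its flank, of which the stronger, at chr7:128058645-128058808, had 32 and 37 tags in Cxcr3-/- and WT monocytes. Itgax had 2 monocyte-only regions in its body, with 19 and 34 tags at chr7:128137092-128137332 and 24 and 35 tags at chr7:128138503-128138703 in Cxcr3-/- and WT monocytes. Itgax and Itgad are neighbours of Itgam on chromosome 7. The strongest Itgad region had 11 and 23 tags in Cxcr3-/- and WT monocytes, against 55 and 24 in Cxcr3-/- and WT CMP/GMP, a ratio of −1.77 (−2.85 to −0.82) in Cxcr3-/- that could not be taken in WT.

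The α4, α9, αE and β7 subunits form receptors for VCAM-1, MAdCAM-1, E-cadherin and matrix proteins. The Itga4 gene end at chr2:79254667-79255952 was strong in every library, with 115 and 122 tags in Cxcr3-/- and WT monocytes, against 187 and 101 in Cxcr3-/- and WT CMP/GMP. Its ratios were −0.15 (−0.50 to 0.19) and −0.22 (−0.61 to 0.17), so it did not differ beyond counting error. Around this shared end the locus held 5 monocyte-only regions and 1 CMP/GMP-only region. The strongest, at chr2:79253413-79253589 in the flank, had 40 and 45 tags in Cxcr3-/- and WT monocytes, where equal accessibility would have given 58.7 and 32.0 tags in Cxcr3-/- and WT CMP/GMP. The authors' −log10 q there was only 7.57 and 10.6 in Cxcr3-/- and WT monocytes. An Itga8 region with 39 and 46 tags had 29.8 and 38.9. The missing CMP/GMP calls at the Itga4 region therefore do not show that it was closed. Itga9 was the locus with the most regions, 39, of which 4 were monocyte-only and 5 CMP/GMP-only. Its strongest region, at chr9:118674185-118674714, had 100 and 112 tags in Cxcr3-/- and WT monocytes, against 54 and 39 in Cxcr3-/- and WT CMP/GMP, with ratios of 1.44 (0.95 to 1.95) and 1.03 (0.49 to 1.59). In the same gene body, chr9:118726395-118726822 was called with 64 and 31 tags in Cxcr3-/- and WT CMP/GMP and in neither monocyte library. Itga9 therefore held strong elements of both kinds.

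Itgae, the αE subunit that binds E-cadherin, had no called gene end in any library. Its strongest region was in the body at chr11:73092928-73093295, with 113 and 153 tags in Cxcr3-/- and WT monocytes, against 80 and 48 in Cxcr3-/- and WT CMP/GMP. The ratios were 1.05 (0.63 to 1.48) and 1.18 (0.70 to 1.68). A CMP/GMP-only region at chr11:73108182-73108527 had 38 and 16 tags in Cxcr3-/- and WT CMP/GMP. Itgb7, the β7 subunit of gut-homing lymphocytes, had no region of either kind, and its strongest region, in the flank, had ratios of 0.01 and 0.07.

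αIIbβ3 is the platelet fibrinogen receptor, and β3 also pairs with αV. At Itgb3 strong monocyte-only and CMP/GMP-only regions stood in the same gene. The monocyte-only region at chr11:104640941-104641255 had 86 and 97 tags in Cxcr3-/- and WT monocytes, the highest of the 50. Equal accessibility would have given 126 and 68.9 tags in Cxcr3-/- and WT CMP/GMP, and no interval was called there. In contrast the Itgb3 gene end at chr11:104607990-104608236 was called with 37 and 20 tags in Cxcr3-/- and WT CMP/GMP and in neither monocyte library, where 25.2 and 28.1 tags would have matched. A body region at chr11:104636997-104637534 had 46 and 34 tags in Cxcr3-/- and WT CMP/GMP and no monocyte call. Itgb3 held 4 monocyte-only and 2 CMP/GMP-only regions in all. Its strongest region common to all libraries (chr11:104647229-104647801) had 64 and 66 tags in Cxcr3-/- and WT monocytes, against 82 and 40 in Cxcr3-/- and WT CMP/GMP.

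Itga2b also had a CMP/GMP-only region at its start. The interval at chr11:102470080-102470288, which touches the start window printed above, had 23 and 20 tags in Cxcr3-/- and WT CMP/GMP and was called in neither monocyte library. Equal accessibility would have given 15.7 tags in Cxcr3-/- and 28.1 in WT monocytes, so the difference rests on few tags. These were the 2 CMP/GMP-only regions at gene ends. The strongest Itga2b region, in the body, had 38 and 60 tags in Cxcr3-/- and WT monocytes, against 81 and 45 in Cxcr3-/- and WT CMP/GMP. Of 4 megakaryocyte markers, Itga2b itself among them, the gene end was called for 1 and 2 in Cxcr3-/- and WT monocytes, against 3 and 3 in Cxcr3-/- and WT CMP/GMP. The Gp1ba end was called in no library and the Pf4 end in all 4. The scaled tags of their loci summed to 223 and 322 in Cxcr3-/- and WT monocytes, against 352 and 321 in Cxcr3-/- and WT CMP/GMP. The part of megakaryocyte-lineage cells in the Itga2b and Itgb3 values was not tested.

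αV pairs with β1, β3, β5, β6 and β8 and binds vitronectin, fibronectin and latent TGF-β. The Itgav start, at chr2:83723924-83725109, was even across cell types, with 83 and 105 tags in Cxcr3-/- and WT monocytes, against 112 and 79 in Cxcr3-/- and WT CMP/GMP, and ratios of 0.12 (−0.31 to 0.54) and −0.08 (−0.52 to 0.36). Behind the start, the flank region at chr2:83812377-83813081 was also even, with ratios of 0.20 (−0.52 to 0.90) in Cxcr3-/- and 0.06 (−0.67 to 0.81) in WT. Several body regions called in all 4 libraries had too few tags for a ratio. Some other regions behind the start were not even. At chr2:83742276-83742605, 62 and 57 tags in Cxcr3-/- and WT monocytes stood against 23 and 19 in Cxcr3-/- and WT CMP/GMP, with ratios of 1.98 (1.27 to 2.74) and 1.09 (0.32 to 1.92). At chr2:83744341-83744883, 53 and 76 tags in Cxcr3-/- and WT monocytes stood against 29 and 24 in Cxcr3-/- and WT CMP/GMP, with ratios of 1.42 (0.74 to 2.13) and 1.17 (0.49 to 1.90). Itgav was the one gene with 2 regions past 2-fold in both genotypes. A monocyte-only region at chr2:83728370-83728683 added 67 and 88 tags in Cxcr3-/- and WT monocytes, where 98.3 and 62.5 tags in Cxcr3-/- and WT CMP/GMP would have been equal. The mean over the Itgav regions was 0.93 over 4 regions in Cxcr3-/- and 0.93 over 6 regions in WT. These means cover different regions. Only the WT mean includes chr2:83714783-83715068 (1.98) and chr2:83729464-83729695 (1.36), which had no ratio in Cxcr3-/-. Their equality therefore does not show that the genotypes agree.

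Among the β partners of αV, Itgb8, whose product activates TGF-β, had gene means of 1.28 over 4 regions in Cxcr3-/- and 0.51 over 2 in WT. Its strongest region, in the flank, had a ratio of 1.16 (0.58 to 1.76) in Cxcr3-/- and 0.31 (−0.27 to 0.91) in WT. The Itgb8 gene end, which touches the start, had a ratio of 1.30 (0.69 to 1.93) in Cxcr3-/- and 0.70 (−0.01 to 1.46) in WT. In WT neither region differed beyond counting error. Itgb5 had 28 regions, of which 9 were called in all 4 libraries, and gene means of 0.11 and 0.32. The Itgb6 locus was nearly closed. Of its 5 regions the strongest, at chr2:60622246-60622476, had 18 and 16 tags in Cxcr3-/- and WT CMP/GMP, and no interval lay in the locus in Cxcr3-/- monocytes.

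**Figure D2:**
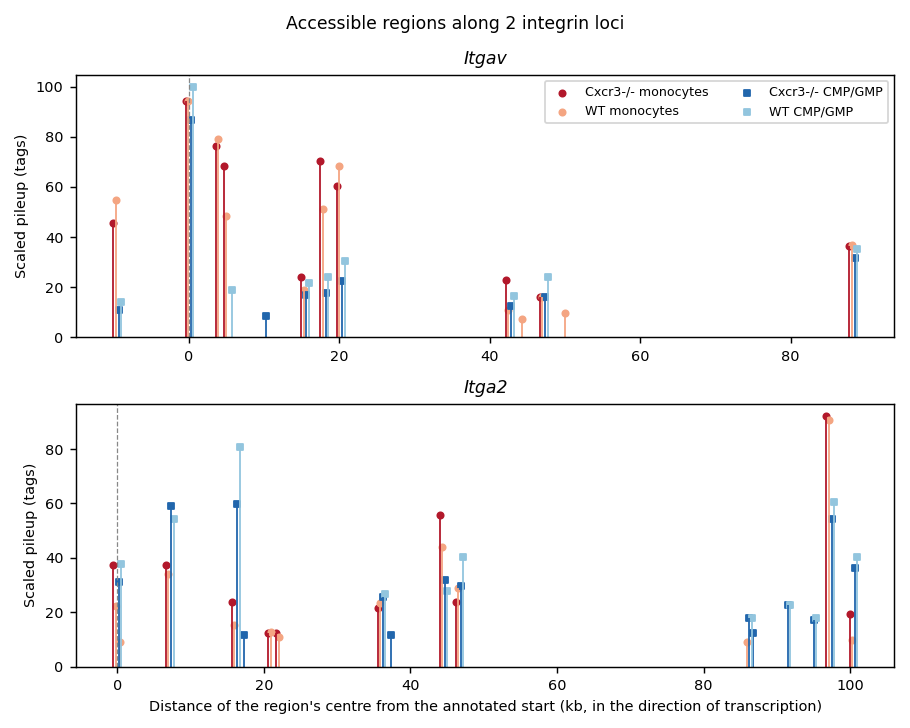
Scaled summit pileup (vertical axis, tags divided by the library factor) of every called region along Itgav and Itga2, by distance of its centre from the annotated start in kb. At Itgav the 4 libraries meet at the start, and the monocyte libraries lead in several strong regions behind it but not in every region. At Itga2 the CMP/GMP libraries lead in the first 2 regions behind the start and the monocyte libraries in a strong region near the far end.

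The collagen, laminin and fibronectin receptors were mixed. Itgb1 encodes β1, the partner of the α subunits in this group. It had an open gene end (chr8:128685181-128686567) with 89 and 79 tags in Cxcr3-/- and WT monocytes, against 89 and 52 in Cxcr3-/- and WT CMP/GMP. The ratios there were 0.55 (0.11 to 0.99) and 0.11 (−0.41 to 0.64). Itga2, the collagen receptor subunit α2, held the lowest WT ratio of all members. Its region at chr13:114915775-114916115 had 21 and 17 tags in Cxcr3-/- and WT monocytes, against 77 and 64 in Cxcr3-/- and WT CMP/GMP, with ratios of −1.32 (−2.09 to −0.61) and −2.41 (−3.27 to −1.62). At the far end of the same gene, chr13:114834536-114835097 had 81 and 101 tags in Cxcr3-/- and WT monocytes, against 70 and 48 in Cxcr3-/- and WT CMP/GMP, with ratios of 0.76 and 0.58. Itga1, its neighbour and the α1 collagen receptor subunit, had 3 monocyte-only regions, the strongest with 40 and 28 tags in Cxcr3-/- and WT monocytes at chr13:115097066-115097314. Itga11, a collagen receptor subunit of fibroblasts, was the barest locus, with 3 regions of at most 19 tags. Itga10 and Itga3, which encode α10 and α3, had neither monocyte-only nor CMP/GMP-only regions.

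Itga5, which forms the fibronectin receptor with β1, was more open in monocytes without passing 2-fold. Its strongest region, at chr15:103370418-103370914, had 136 and 162 tags in Cxcr3-/- and WT monocytes, against 123 and 73 in Cxcr3-/- and WT CMP/GMP, with ratios of 0.70 (0.34 to 1.06) and 0.66 (0.25 to 1.08). A monocyte-only region of Itga5 at chr15:103358461-103359005 had 52 and 68 tags in Cxcr3-/- and WT monocytes, where 76.3 and 48.3 tags in Cxcr3-/- and WT CMP/GMP would have been equal. Itga6, the laminin receptor subunit found on progenitors, had no monocyte-only region and 4 CMP/GMP-only ones. The strongest of the 4, at chr2:71812819-71813122, had 25 and 17 tags in Cxcr3-/- and WT CMP/GMP. Equal accessibility would have given 17.0 tags in Cxcr3-/- and 23.9 in WT monocytes, so these calls rest on few tags. The Itga6 regions with a ratio ran from −0.27 to 0.43 in Cxcr3-/- and from −0.40 to 0.97 in WT. Their means were 0.15 and 0.47, over 3 regions each. Itga8 had 12 of 19 regions in all 4 libraries and 3 monocyte-only regions, the strongest with 39 and 46 tags in Cxcr3-/- and WT monocytes. Itga7 had its strongest region in the flank, with 172 and 164 tags in Cxcr3-/- and WT monocytes, against 134 and 83 in Cxcr3-/- and WT CMP/GMP. Its ratios were 0.91 (0.58 to 1.25) and 0.49 (0.10 to 0.89). Itgb4, the β4 subunit of epithelial hemidesmosomes, was lower in Cxcr3-/- monocytes than elsewhere, with 26 and 58 tags in Cxcr3-/- and WT monocytes, against 77 and 50 in Cxcr3-/- and WT CMP/GMP.

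The adaptors and kinases had 49 of 99 regions called in all 4 libraries, 12 monocyte-only and 1 CMP/GMP-only, beside 38.7%, 13.8% and 6.68% of the regions in all loci. All 6 regions of Fermt3 and 14 of 18 of Pxn, the paxillin gene, were called in every library. The gene end of Zyx, which encodes zyxin, was the strongest region of any member, with 186 and 206 tags in Cxcr3-/- and WT monocytes, against 225 and 156 in Cxcr3-/- and WT CMP/GMP. Its ratios of 0.28 (−0.01 to 0.56) and −0.09 (−0.40 to 0.22) show no difference beyond counting error. The Vcl gene end, of vinculin, had ratios of −0.49 (−0.91 to −0.09) in Cxcr3-/- and 0.15 (−0.28 to 0.60) in WT. Ilk, the integrin-linked kinase gene, had gene means of 0.01 and −0.05.

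The WT ratio of a Tln1 region was among the highest of the list, level with that of an Itgav flank region at chr2:83714783-83715068 (1.98, 1.04 to 3.05), which had no ratio in Cxcr3-/-. At chr4:43560182-43560599, in the body near the start, 86 and 139 tags in Cxcr3-/- and WT monocytes stood against 36 and 25 in Cxcr3-/- and WT CMP/GMP, with ratios of 1.81 (1.23 to 2.41) and 1.98 (1.36 to 2.66). Its gene end next to it went the other way in Cxcr3-/-, with 75 and 110 tags in Cxcr3-/- and WT monocytes, against 166 and 83 in Cxcr3-/- and WT CMP/GMP, and ratios of −0.59 (−1.01 to −0.19) and −0.09 (−0.51 to 0.34). Ptk2, the FAK gene, had 1 region called in every library and 5 monocyte-only ones, the strongest with 30 and 31 tags in Cxcr3-/- and WT monocytes at chr15:73350987-73351363. Ptk2b, the gene of the related kinase Pyk2, had 5 monocyte-only regions and 1 CMP/GMP-only region. A flank region of Ptk2b at chr14:66147453-66148108 was lower in monocytes, with 22 and 25 tags in Cxcr3-/- and WT monocytes, against 69 and 44 in Cxcr3-/- and WT CMP/GMP. Its ratios were −1.10 (−1.86 to −0.39) and −1.31 (−2.08 to −0.57).

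**Figure D3:**
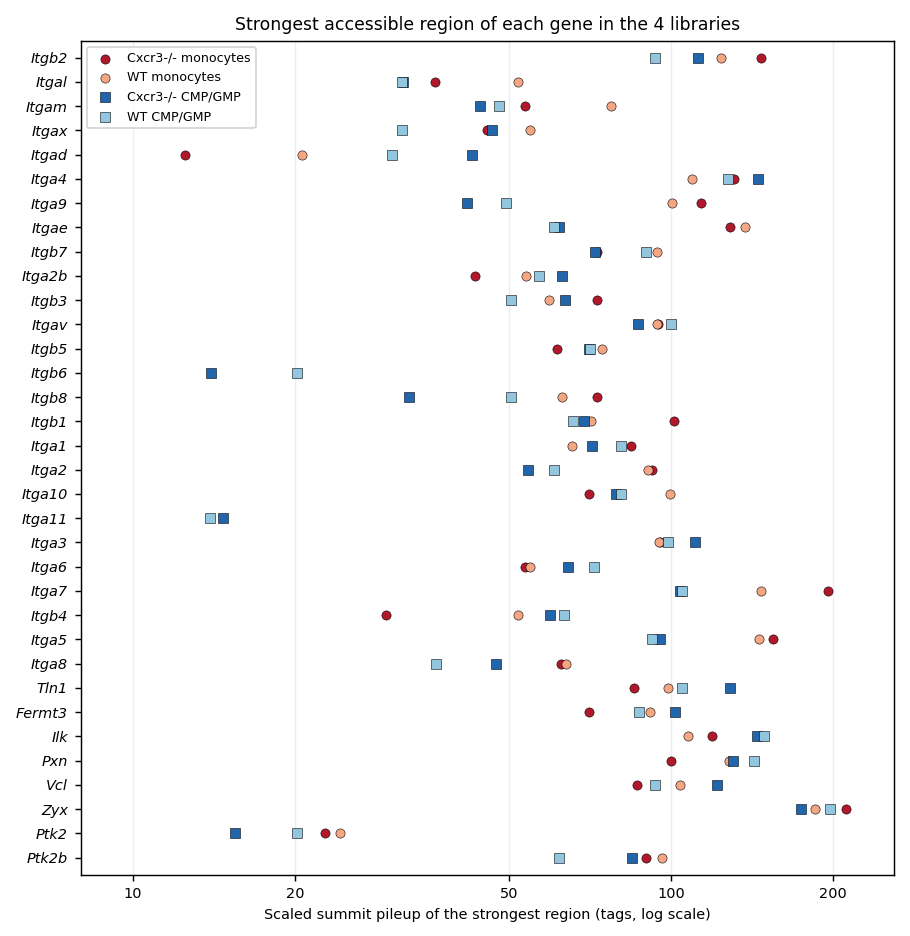
Scaled summit pileup (tags, log axis) of the strongest region of each gene in the 4 libraries, chosen among regions called in all 4 where the gene has one. Both monocyte libraries lie well above both CMP/GMP libraries at Itga9 and Itgae, Itgad has the monocyte libraries below, and Itgb6 and Itga11 have points in CMP/GMP only.

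Across the list, 104 regions had a monocyte over CMP/GMP ratio in both genotypes. Of these 6 were past 2-fold higher in both, beside 5.71% of such regions in all protein-coding loci, and 3 were past 2-fold lower, beside 3.26%. The higher ones were the 2 of Itgav and those of Tln1, Itga9, Itgb2 and Itgae described above, and the lower ones those of Itgal, Itga2 and Ptk2b. Both counts were near the share over all loci. In Cxcr3-/- alone, 16 of 128 regions were past 2-fold higher (9.41% of all locus regions) and 10 lower (9.29%), and in WT alone 9 of 111 were higher (9.61%) and 6 lower (5.97%). With tags scaled to the background signal instead, ratios moved by 0.44 in Cxcr3-/- and 0.99 in WT, 18 regions were higher and 0 lower. Under that scaling the Itgal end had −1.39 in Cxcr3-/- and −0.07 in WT, the Itga2 region −0.88 and −1.42, and the Ptk2b region −0.65 and −0.32. By gene mean, the median over the list was 0.03 in Cxcr3-/- (32 genes) against −0.20 over all genes, and 0.06 in WT (30 genes) against −0.01. Genes above 0 numbered 18 of 32 in Cxcr3-/- (34.3% of all genes) and 19 of 30 in WT (48.9%), and genes below 0 numbered 14 (65.7%) and 11 (51.1%). Itgb6 and Itga11 had no region with enough tags for any ratio. The regions of a single gene often disagreed, as at Itga2, Itga9 and Tln1, and the SD of the region ratios was 0.75 in Cxcr3-/- and 0.68 in WT, against 0.81 and 0.75 over all loci.

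**Figure D4:**
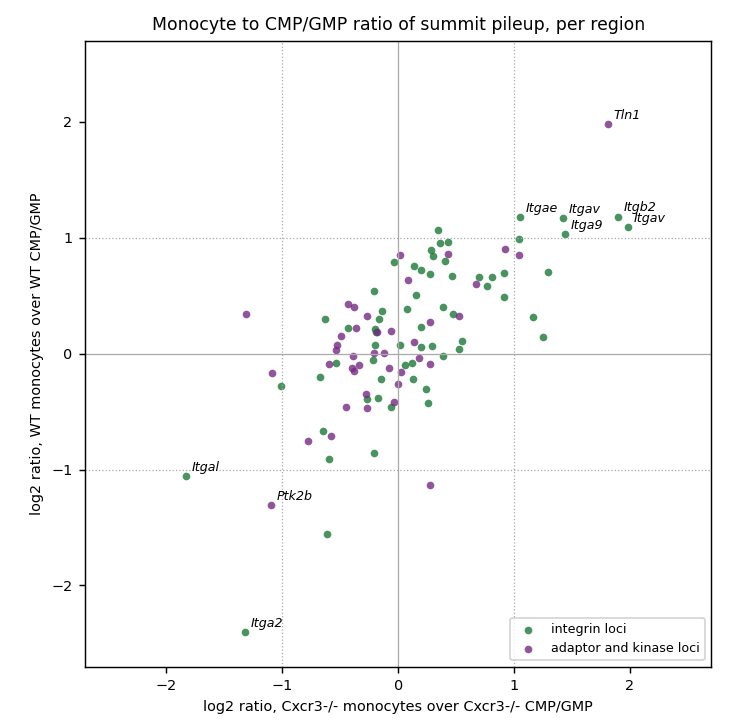
Log2 ratio of scaled summit pileup, monocytes over CMP/GMP, for the 104 regions with a ratio in both genotypes, Cxcr3-/- on the horizontal and WT on the vertical axis. Dotted lines mark 2-fold, and the 6 regions past it in the upper right and the 3 in the lower left are named by gene.

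The wider adhesion machinery was counted on a list of 58 further genes of integrin signalling. Their 809 regions held 123 monocyte-only and 45 CMP/GMP-only regions, beside 13.8% and 6.68% over all loci, and 19 regions were past 2-fold higher in monocytes in both genotypes and 7 lower, of 188, beside the same 5.71% and 3.26% over all loci. The median gene ratio was −0.04 in Cxcr3-/- and 0.14 in WT. Tns3, a tensin that links β tails to actin, had 3 of the higher regions. The strongest, at chr11:8443447-8444070, had 99 and 122 tags in Cxcr3-/- and WT monocytes, against 19 and 12 in Cxcr3-/- and WT CMP/GMP, with ratios of 2.93 and 2.85. Apbb1ip, the Rap1 effector RIAM that recruits talin, had 3 higher regions and 1 lower. Actn1, the gene of the actin crosslinker α-actinin-1, had 2 higher regions. The ILK partners Lims1 and Parvg, the Src family kinases Src and Fyn, the GTPase Rac1, and Git2, Bcar1, Skap2 and Tns1 had 1 each. Fyb, the ADAP adaptor gene, had 1 higher and 2 lower, and Cd151, Vav1 and Vav3 had 1 lower each. The Cd151 region, of a tetraspanin that binds laminin-receptor integrins, had 30 and 38 tags in Cxcr3-/- and WT monocytes, against 112 and 59 in Cxcr3-/- and WT CMP/GMP. Of 23 integrin ligand genes with 156 regions, 15 regions were monocyte-only and 14 CMP/GMP-only, beside the same 13.8% and 6.68%. F11r, Jam3 and Vwf had 1 region each past 2-fold higher in both genotypes, of 31, and 0 were lower, with median gene ratios of 0.00 in Cxcr3-/- and 0.06 in WT. Jam3 encodes a junctional ligand of αMβ2, and its region had 79 and 85 tags in Cxcr3-/- and WT monocytes, against 23 and 11 in Cxcr3-/- and WT CMP/GMP.

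The genotype comparison asks whether loss of CXCR3 goes with other accessibility in the same cell type. In CMP/GMP no region of the integrin and focal adhesion loci passed 2-fold between Cxcr3-/- and WT. Of 123 regions with a ratio, 0 were past 2-fold higher and 0 lower, beside 0.114% of all locus regions in each direction. The ratios ran from −0.71 to 0.69 with an SD of 0.30, and the SD over all locus regions was 0.30. By gene, 20 of 31 were above 0 (62.0% of all genes) and 11 below (38.0%), with a median of 0.05 against 0.07 over all genes. The 7 adaptor and kinase genes with a value ran from 0.02 at Ilk to 0.16 at Pxn, and after adjustment for gene density 2 were above 0 and 5 below.

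In monocytes 1 of 130 regions was past 2-fold higher in Cxcr3-/-, beside 0.222% of all locus regions, and 2 were lower, beside 0.448%. The higher one was in Itgb8 at chr12:119164173-119164506, with 40 tags in Cxcr3-/- against 21 in WT monocytes and a ratio of 1.27 (0.47 to 2.11). In Cxcr3-/- CMP/GMP and WT CMP/GMP a ratio could not be taken there. Other Itgb8 regions leaned the same way, and the gene mean of 0.73 over 4 regions, which ran from 0.21 to 1.27, was the highest of the list. Adjusted for gene density, the Itgb8 mean was 0.49, below the 0.66 of Itga7. In CMP/GMP the Itgb8 mean had the opposite sign, at −0.36 over 2 regions, which ran from −0.63 to −0.08. The lower regions were in Pxn at chr5:115535614-115536068, with 17 tags in Cxcr3-/- against 57 in WT monocytes (−1.40, −2.28 to −0.60), and in Itgal at chr7:127297166-127297453, with 17 against 47 tags (−1.13, −2.02 to −0.30). In CMP/GMP the same Pxn region had a ratio of 0.25 (−0.39 to 0.91) and the same Itgal region −0.28 (−1.01 to 0.47). The difference between cell types was not tested. With tags scaled to the background signal, the Itgb8 ratio was 0.91 and no longer past 2-fold.

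Just inside the limit stood the Itgal region, and just outside were a Zyx region at chr6:42354358-42354604, with 79 tags in Cxcr3-/- against 52 in WT monocytes (0.94, 0.42 to 1.48), and a further Itgb8 region. By gene, 13 of 31 were above 0 in monocytes (42.1% of all genes) and 18 below (57.9%), with a median of −0.05 against −0.07 over all genes. All 4 β2-group genes with a value were below 0, at −0.14 for Itgb2, −0.36 for Itgam, −0.41 for Itgax and −0.82 for Itgal. These genes have 33 to 53 genes in 1 Mb around them, and adjusted for gene density the values were 0.09, −0.12, −0.18 and −0.59 in the same order, so the shared sign was lost. In CMP/GMP the same 4 genes had unadjusted values of 0.05, −0.06, 0.56 and 0.04, and adjusted values of −0.08, −0.18, 0.46 and −0.08. The Itgax value in CMP/GMP rests on 1 region, with an unadjusted interval of −0.14 to 1.29. Collagen and laminin receptors spread widely in monocytes, from −0.62 at Itgb4 and −0.61 at Itga10 to 0.43 at Itga1 and Itga7.

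The monocyte genotype ratios moved with the gene density of the surroundings. Over the 31 genes, the gene mean fell with the number of protein-coding genes in 1 Mb (Spearman rho −0.63). Over single regions, rho was −0.44 in the member loci, near the −0.39 over all locus regions. The points share 2 libraries and their scaling. The 16 genes with at most 24 genes in 1 Mb had a median of 0.08, and the 15 in denser surroundings −0.25. Itgb8, with 4 genes in 1 Mb, and Itgal, with 53, stand at opposite ends, and Itga7, with 47 and a mean of 0.43, goes against the trend. Adjusted for gene density, the Itgb8 region had a ratio of 1.04, the Pxn region −1.24 and the Itgal region −0.89, so the last was no longer past 2-fold. In CMP/GMP rho was 0.17 over the gene means of the list. Over single regions it was 0.15 in the member loci and 0.17 over all locus regions. The part of gene density in the genotype ratios was not tested further.

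**Figure D5:**
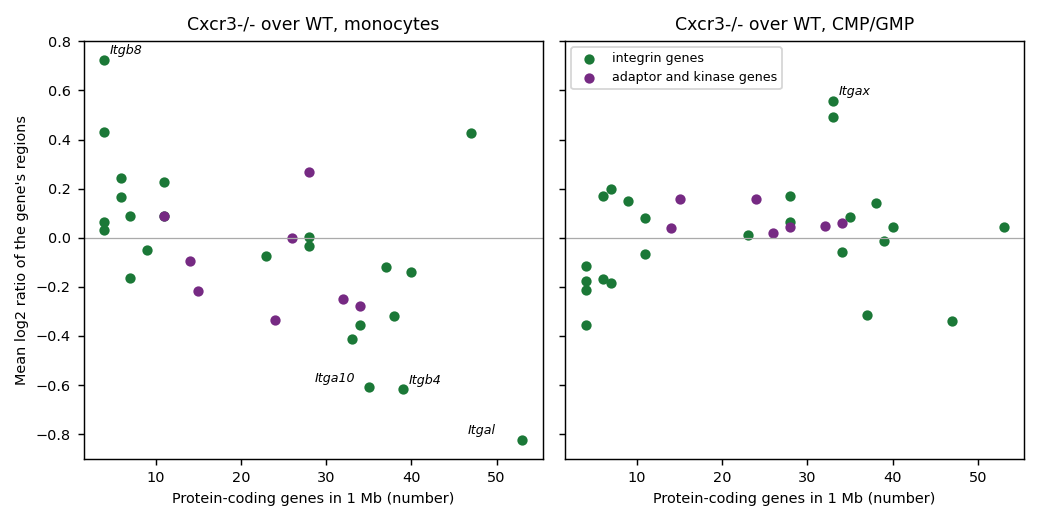
Mean log2 ratio of each gene's regions, Cxcr3-/- over WT, in monocytes (left) and CMP/GMP (right), against the number of protein-coding genes in 1 Mb around the gene. In monocytes the values run from 0.73 at Itgb8 to −0.82 at Itgal and decline with density, Itga7 apart, and in CMP/GMP they lie closer to 0.

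Regions called in 1 genotype were more numerous in the genotype with the longer interval list. In monocytes 5 of 345 member regions were called in Cxcr3-/- and not in WT, or 1.45% beside 4.67% in all loci, and 87 in WT and not in Cxcr3-/-, or 25.2% beside 24.8%. The authors' list was 78244 intervals long for Cxcr3-/- monocytes, against 98257 for WT monocytes. In CMP/GMP 74 of 322 were called in Cxcr3-/- and not in WT, or 23.0% beside 21.8%, and 16 in WT and not in Cxcr3-/-, or 4.97% beside 6.69%. For CMP/GMP the list lengths were 80171 in Cxcr3-/- against 69521 in WT. Member loci took 267, 349, 312 and 257 intervals in Cxcr3-/- monocytes, WT monocytes, Cxcr3-/- CMP/GMP and WT CMP/GMP.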

How the data were processed

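Omni-ATAC-seq libraries of cultured mouse bone marrow-derived cells were grouped by their labels, 1 per group. The submitters' processing notes name Trim Galore, Bowtie2 and SAMtools as tools and mm10 as the build. The program that called the intervals was not given in the sources used here, nor whether the duplicate sequencing runs that the labels mention had been pooled. The deposited score follows the authors' −log10 q and was not used. The deposited fold is the ratio of tags at the summit to the expected background, computed by the authors' caller. The deposited −log10 p and −log10 q belong to each interval, and only the first entered calculations.

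Tags at each summit were solved from the authors' fold and −log10 p under a Poisson background with 1 added tag. They were whole within 0.001 for all but 0 intervals of Cxcr3-/- monocytes, 1 of WT monocytes, 2 of Cxcr3-/- CMP/GMP and 0 of WT CMP/GMP. As a measure of depth, the expected background was 97.2, 95.6, 194 and 135 tags in each 10 kb of these libraries. Scaling factors came from the median tags over the 44589 regions called in all 4 libraries. A gene's value is the mean log2 ratio over its regions. Counting intervals are exact conditional binomial, cover counting error only, and ignore PCR duplicates. The ratio calculation was tested on simulated data. Regions are described by place in the locus, as gene end, body or flank, since exons were not used here. Start windows came from RefSeq (GRCm38.p6). Python 3.11.15, numpy 2.4.6, pandas 2.3.3, scipy 1.17.1 and matplotlib 3.10.9 were used.

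The genes and lists were chosen with earlier results of these data known. Most named regions are a gene's strongest region, a region of a single cell type or a region past 2-fold. Many regions of these kinds were not named, so the named ones are a selection. Genes of the wider lists were named only where past 2-fold in both genotypes. A few regions counted in those lists are not reported here by name. Alternatives were the scaling, minimum tags, fold, flank, gene end window, equal list lengths, weighting and gene density.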

Additional observations from a re-analysis of the deposited data

Results flagged for a closer look

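A Zyx region at chr6:42354358-42354604 moved in opposite directions in the 2 cell types. Its log2 ratio of Cxcr3-/- over WT was 0.94 (0.42 to 1.48) in monocytes, with 79 tags in Cxcr3-/- against 52 in WT, and −0.46 (−0.90 to −0.02) in CMP/GMP. The difference between the cell types was not tested, since each group had 1 library. Adjusted for gene density, the monocyte ratio was 1.11 and the CMP/GMP ratio −0.56. With tags scaled to the background signal they were 0.58 and −0.28.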

How the results depend on the processing

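Of 94 values under other settings, 55 stayed close to the reported ones, and 39 moved, among them 3 median gene ratios near 0 that changed sign. With a flank of 50 kb, member intervals numbered 490 in Cxcr3-/- monocytes, 627 in WT monocytes, 530 in Cxcr3-/- CMP/GMP and 440 in WT CMP/GMP, monocyte-only regions 105 and CMP/GMP-only regions 53. On lists of equal length, 40 regions were monocyte-only and 47 CMP/GMP-only, the reverse of the reported order. Regions past 2-fold in both genotypes numbered 18 higher and 0 lower in monocytes with background scaling, 3 higher and 0 lower at a minimum of 60 tags, 14 and 7 past 1.5-fold, 5 lower at a minimum of 20 tags, and 1 lower with median-of-ratios scaling, an alternative added after the data had been seen. For Cxcr3-/- against WT monocytes, background scaling gave 0 regions higher and 4 lower, a minimum of 60 tags 0 and 0, gene density adjustment 2 and 1, and 1.5-fold 4 and 6. A minimum of 20 tags gave 2 higher. In CMP/GMP, 1.5-fold gave 1 higher and 3 lower, and a minimum of 20 tags 1 lower. The median gene ratio of monocytes over CMP/GMP in WT was 1.05 with background scaling, 0.18 at a minimum of 60 tags, 0.18 with median-of-ratios scaling and 0.12 when weighted by tags. In Cxcr3-/- it was 0.48 with background scaling, −0.026 at a minimum of 20 tags, 0.14 at 60 tags and 0.16 with median-of-ratios scaling. For Cxcr3-/- over WT it was 0.22 in CMP/GMP and −0.42 in monocytes with background scaling, −0.058 in CMP/GMP with gene density, and 0.005 in monocytes at 60 tags. Background scaling shifts every ratio by a constant, and other causes were not tested. No paired analysis was possible because each group had 1 library. Depth limits each region, since the median summit holds only 21 to 29 tags and the intervals above are wide.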
